A study of Homo sapiens with 8 samples.

Results

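The *S100*, *SPRR* and *LCE* genes of 1q21 lie side by side on the long arm of chromosome 1, in and around the epidermal differentiation complex. Members were taken by gene symbol: every measured gene whose symbol starts with S100A, SPRR or LCE, together with the fused-type *S100* genes (*FLG*, *FLG2*, *HRNR*, *RPTN*, *TCHH*, *TCHHL1* and *CRNN*) and the envelope genes *IVL*, *LORICRIN* (older symbol *LOR*) and *CRCT1*. This gave 54 of the 4072 genes with a symbol in the series, namely 16 *S100A*, 7 fused-type, 17 *LCE*, 11 *SPRR* and 3 other envelope genes, each measured by 1 transcript cluster, the probe set that stands for a gene on this array. In RefSeq (GRCh38.p14) they span chr1:151982915-153634361, which is 1.65 Mb. *S100A10* is the first member along the chromosome, *S100A11* follows it, and the other *S100A* genes lie at the far end, beyond the fused-type, *LCE* and *SPRR* genes. *LCE1D*, *LCE7A* and *SPRR5* were not analysed here.

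RNA came from clonal isolates of LNCaP, a prostate cancer cell line with luminal features that expresses the androgen receptor, measured once per clone on Affymetrix Human Gene 2.0 ST arrays. Clones 2, 8, 9 and 10 stably over-expressed HA-tagged *HIST1H1A*, which encodes the linker histone H1.1, and clones 3, 4, 8 and 9 carried the control vector. Both groups had been transduced with lentivirus, selected with antibiotic and grown by serial dilution from single cells. With 1 array per clone, differences between clones and differences in measurement cannot be told apart. The p-values rest on the spread between clones, 4 on each side unless fewer are stated. In the limma fits used here the spread of all clusters also enters them.

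The *LCE*, *SPRR*, fused-type and envelope genes of this locus and some of its *S100A* genes are best known from stratified epithelia or from leukocytes. S100 proteins are small calcium-binding dimers that change the activity of partner proteins, annexins among them. The fused-type proteins join an S100 domain to long repeats and bundle keratin filaments or harden the hair sheath. Involucrin, loricrin, the small proline-rich (SPRR) proteins and the late cornified envelope (LCE) proteins are cross-linked by transglutaminases into the shell that replaces the membrane of a dying keratinocyte.

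Of the 54 members, 1 passed an adjusted p of 0.05 (1.85%), and it was *S100A10*, higher in HIST1H1A clones and by more than 2-fold. The fit was limma over all 16377 clusters with Benjamini-Hochberg adjustment, in which 5.79% of clusters passed, 3.77% higher and 2.02% lower in HIST1H1A clones. A fold change over 2 as well was met by 3.77% of clusters. Among the 4072 genes with a symbol 12.5% passed, so the share of the locus was below both backgrounds. The groups of clones did not overlap in 3 of 54 members (5.56%), against 11.1% of all clusters and 20.1% of genes with a symbol. These were *S100A10* and *LCE3B*, higher in HIST1H1A clones, and *SPRR2D*, lower. At an unadjusted p under 0.05 in limma there were 2 members, *S100A10* and *LCE3B* (3.7%), against 15.1% of clusters and 25.9% of genes with a symbol.

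The remaining 53 members differed little between the groups. Their log2 fold changes ran from -0.33 to 0.48, so 98.1% of the 54 members lay within 0.5 of no change, compared with 83.6% of clusters and 74.8% of genes with a symbol. The median size of the difference, in either direction, was 0.123 on the log2 scale in the members, 0.161 in all clusters and 0.207 in genes with a symbol. The signed medians were -0.03, -0.01 and 0.03. For 52 members the 95% confidence interval of the difference stayed within 1 on the log2 scale on both sides. The exceptions were *S100A10* and *LCE2D*, whose interval reached 1.03. These intervals are for array signal. No background level was used, so for dim genes they do not bound a change in RNA. Both group means were below 3.27, the median of all values on the arrays, in 31 members and above it in 21. They were below it in 1047 of 4072 genes with a symbol and in 7738 of 16377 clusters. Members were thus more often dim than either background, and the shares compared here and above were not matched on signal. The spread between clones was close to that of other genes, with a median SD of 0.17 in HIST1H1A clones and 0.24 in control clones, against 0.20 and 0.27 for genes with a symbol.

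**Figure D1:**
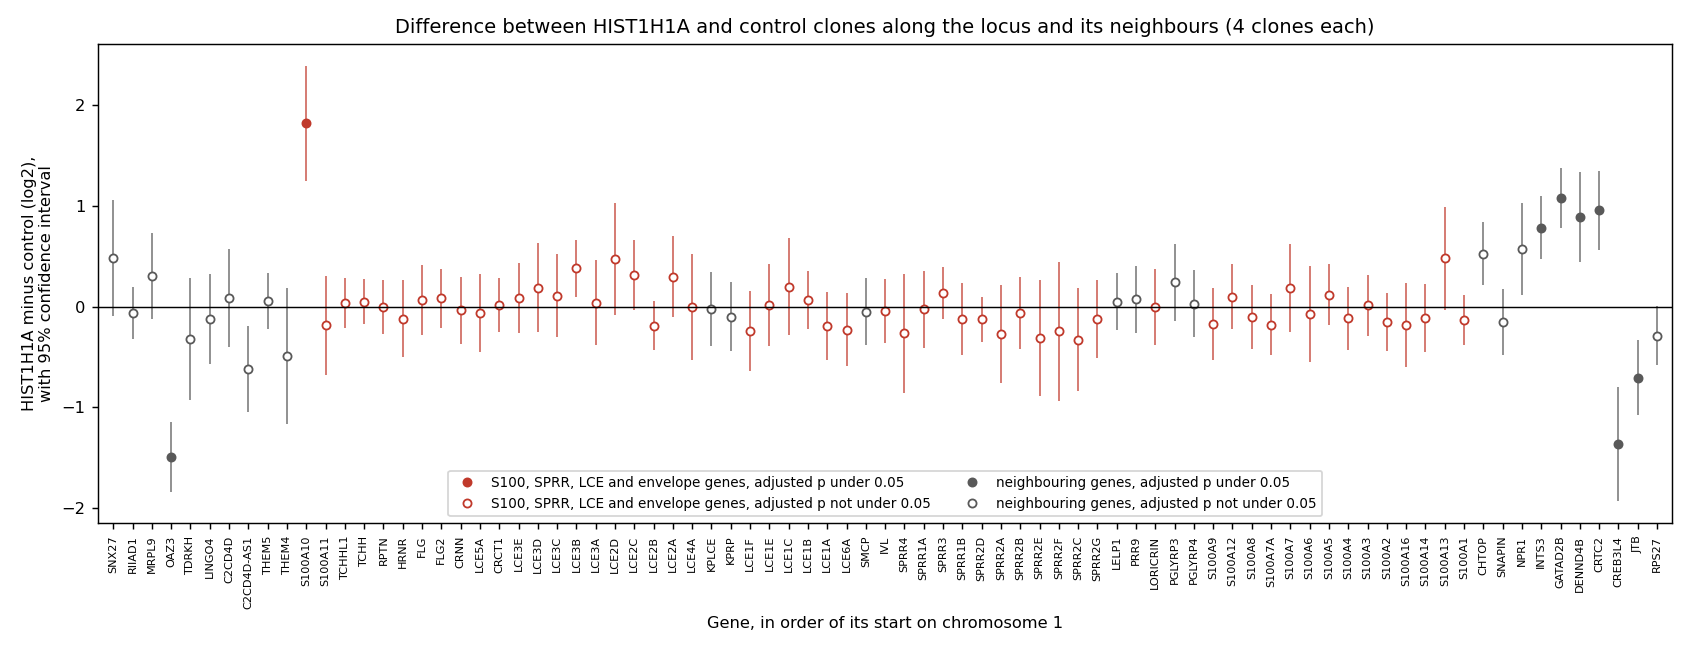
HIST1H1A minus control difference (log2, points) with its 95% confidence interval (bars) for the 54 members in red and for neighbouring genes in grey, in order along chromosome 1; filled points have an adjusted p under 0.05 in limma. *S100A10*, at 1.82, is the single filled red point. Of the 10 genes after the last member 6 are filled, and 12.5% of all genes with a symbol passed. Members and neighbours were not matched on signal.

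**Figure D2:**
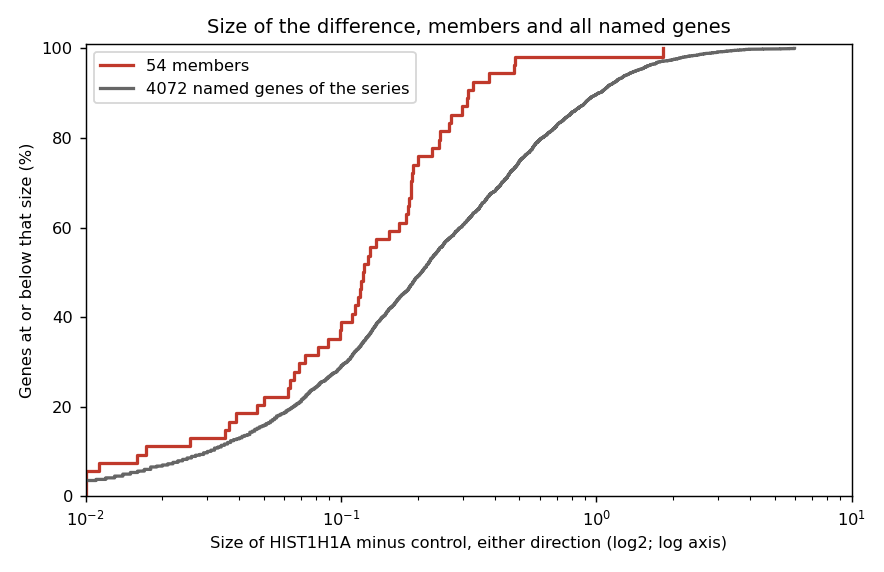
Share of genes (%, y axis) whose difference between HIST1H1A and control clones, in either direction, is at or below the size on the x axis (log2 units on a log axis), for the 54 members in red and the 4072 genes with a symbol in grey. The red line runs above the grey one, and 98.1% of members against 74.8% of genes lie at or below 0.5.

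*S100A10* encodes p11, which lacks working calcium-binding loops and joins a pair of annexin A2 molecules at the plasma membrane. Its log2 signal was 4.77, 4.93, 4.93 and 4.97 in HIST1H1A clones 2, 8, 9 and 10, against 3.86, 3.01, 2.55 and 2.89 in control clones 3, 4, 8 and 9. Every HIST1H1A clone was above every control clone, and the lowest HIST1H1A clone was well above control clone 3, the highest control. The HIST1H1A clones lay close together (mean 4.90 ± 0.09, SD, n = 4) and the control clones spread further (3.08 ± 0.55, SD, n = 4). The difference was 1.82 (standard error 0.25, limma, adjusted p = 0.0033), a 3.53-fold higher signal with a 95% confidence interval of 2.38 to 5.25. The limma fit and all alternative settings took the spread between clones as equal in both groups. No test with unequal spreads was run, so how far the call rests on this was not tested. The call held in 15 of 15 settings that kept at least 7 arrays and tested against no change, with log2 fold changes of 1.65 to 2.08. These settings reused the same arrays, so they are not independent checks, and several could not move the estimate from 1.82. The call was lost when limma tested against a 2-fold change (adjusted p = 0.40). It was also lost with the arrays of clones 8 and 9 alone (adjusted p = 0.13 and 0.0536 in limma, with and without a block on clone number). The control mean was under the arrays' median value, and no background level was used.

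*S100A11*, the next gene along and the partner of annexin A1, gave 7.20, 7.93, 7.90 and 7.82 in HIST1H1A clones 2, 8, 9 and 10, against 8.18, 8.07, 7.88 and 7.45 in control clones 3, 4, 8 and 9. The groups overlapped, and the difference was -0.18 (95% confidence interval -0.67 to 0.31, adjusted p = 0.82 in limma). A rise of the size seen in *S100A10* lies outside that interval. The start sites of the 2 genes are 43.1 kb apart on the same strand.

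**Figure D3:**
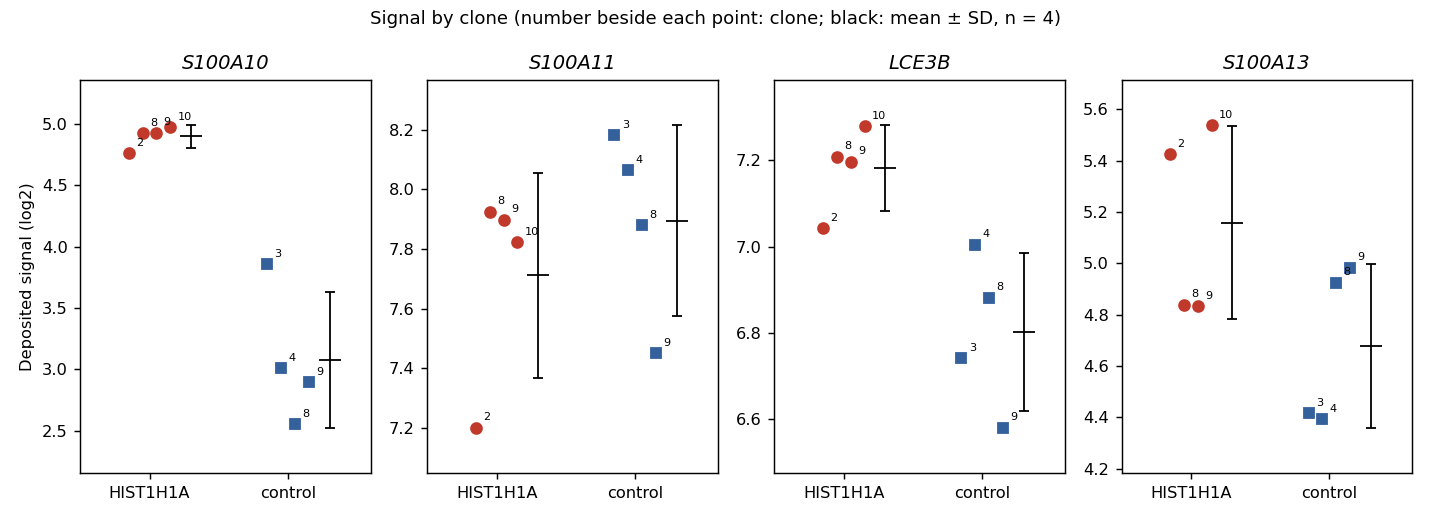
Deposited log2 signal of *S100A10*, *S100A11*, *LCE3B* and *S100A13* in each HIST1H1A clone (red circles) and control clone (blue squares), with the clone number beside each point and the mean ± SD (n = 4) in black; each panel has its own y axis. The groups are separate in *S100A10* and *LCE3B* and overlap in *S100A11* and *S100A13*, and *S100A10* alone passed the adjusted p.

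Promoter sequence set *S100A10* apart from most of the locus, though not from all of its family. RefSeq sequence before the start was matched for 49 of the 54 members, all but *CRCT1*, *LCE1B*, *SPRR2D*, *SPRR2E* and *SPRR2C*, and the 250 bases before the most upstream start were read. At least 10 CpG dinucleotides were found in 4 of 49 members (8.16%), against 51.7% of the 27305 genes in the same table. The 4 were *S100A10* and *S100A6* with 24 each and *S100A11* and *S100A13* with 15 each, while the other members had 0 to 7. The motif TATAAA, the core of a TATA box, was searched on both strands and occurred in 26 members (53.1%), against 11.2% of all genes. On the gene's own strand, beginning 25 to 35 bases before the start, it occurred in 22 members (44.9%), against 2.43% of all genes, including 5 of 7 fused-type and 7 of 8 matched *SPRR* genes. The motif TGACTCA, which AP-1 factors bind and which reads TGAGTCA on the opposite strand, was searched on both strands and occurred in 9 members (18.4%), against 4.15%, among them *IVL*, *LORICRIN* and 5 *SPRR* genes. These are matches of letters, not measured binding. The 4 stretches below show both kinds, 5′ to 3′ in the direction of transcription, with every CpG and every match to these motifs, on either strand, in capitals. They are chr1:151993860-151994109 (minus strand) for *S100A10*, chr1:152037005-152037254 (minus strand) for *S100A11*, chr1:153535992-153536241 (minus strand) for *S100A6* and chr1:152983831-152984080 (plus strand) for *SPRR1A*, all in GRCh38.p14 and each ending at the base before the start.
S100A10: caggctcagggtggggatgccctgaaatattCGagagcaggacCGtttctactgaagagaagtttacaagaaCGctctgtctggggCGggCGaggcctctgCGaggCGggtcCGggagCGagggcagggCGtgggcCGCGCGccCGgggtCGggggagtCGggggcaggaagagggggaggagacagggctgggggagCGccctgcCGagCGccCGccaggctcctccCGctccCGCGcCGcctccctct
S100A11: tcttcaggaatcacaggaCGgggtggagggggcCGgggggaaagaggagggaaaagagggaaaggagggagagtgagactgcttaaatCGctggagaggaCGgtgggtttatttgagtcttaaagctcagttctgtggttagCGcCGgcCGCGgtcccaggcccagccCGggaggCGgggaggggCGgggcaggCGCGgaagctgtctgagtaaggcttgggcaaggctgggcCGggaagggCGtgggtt
S100A6: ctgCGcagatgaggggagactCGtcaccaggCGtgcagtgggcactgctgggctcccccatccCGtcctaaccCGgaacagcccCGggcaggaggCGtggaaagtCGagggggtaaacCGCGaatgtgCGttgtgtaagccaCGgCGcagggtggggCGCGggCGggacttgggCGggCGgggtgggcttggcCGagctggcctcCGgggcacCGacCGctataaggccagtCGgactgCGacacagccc
SPRR1A: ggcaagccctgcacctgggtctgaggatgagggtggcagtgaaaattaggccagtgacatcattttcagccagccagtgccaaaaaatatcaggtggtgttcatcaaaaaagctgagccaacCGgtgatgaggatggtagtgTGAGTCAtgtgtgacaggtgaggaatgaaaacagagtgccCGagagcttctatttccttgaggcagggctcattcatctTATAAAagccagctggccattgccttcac

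*S100A10*, *S100A11* and *S100A6* carried no exact match to either motif in these bases, and their GC content was 71.2%, 63.6% and 70.0%. Variants of the TATA motif were not searched, and the *S100A6* stretch holds tataagg near its end. *SPRR1A* had 2 CpG, a GC content of 49.6%, a TATA motif whose first base lay 29 bases before the start and an AP-1 motif that began 108 bases before it. *S100A6*, with as many CpG as *S100A10*, gave 3.09, 3.48, 3.25 and 3.50 in HIST1H1A clones 2, 8, 9 and 10, against 3.82, 3.68, 3.05 and 3.05 in control clones 3, 4, 8 and 9. The groups overlapped, with a difference of -0.07 (95% confidence interval -0.55 to 0.40).

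**Figure D4:**
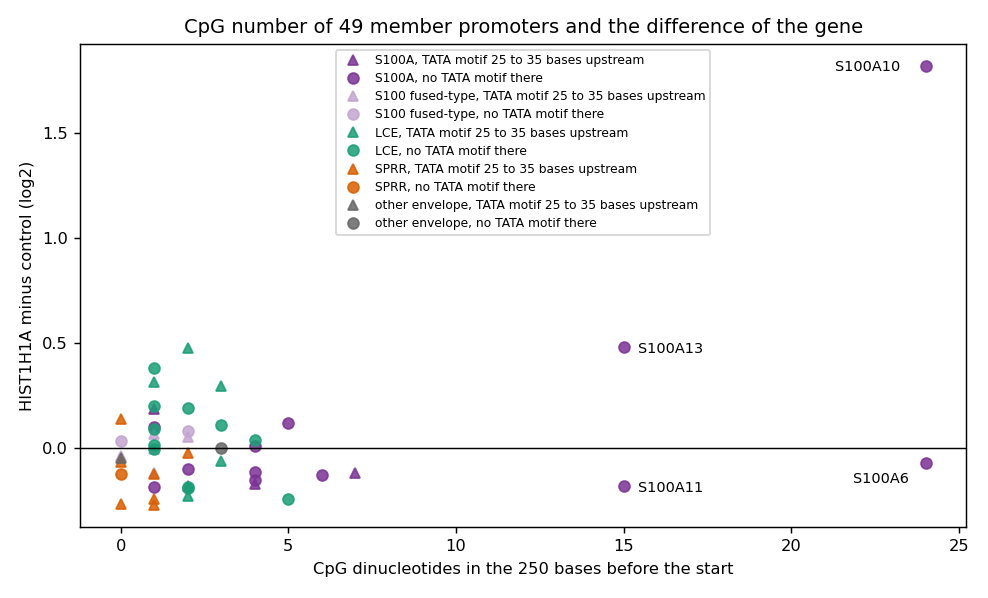
Number of CpG dinucleotides in the 250 bases before the start (x axis) and HIST1H1A minus control difference (log2, y axis) for the 49 matched members, coloured by family; triangles have a TATA motif that begins 25 to 35 bases upstream and circles do not. *S100A10* and *S100A6* share 24 CpG, and their differences are 1.82 and -0.07.

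The other *S100A* genes did not pass, nor did any of them reach an unadjusted p of 0.05 in limma or in the methods' t-test, which assumes equal variances and was run on the same values. Their 15 differences ran from -0.18 to 0.48 on the log2 scale, with 10 below 0, and no pair of groups was separate. *S100A13*, which takes part in the release of FGF1 and interleukin-1 alpha, came nearest, with 5.43, 4.84, 4.83 and 5.54 in HIST1H1A clones 2, 8, 9 and 10, against 4.42, 4.39, 4.92 and 4.98 in control clones 3, 4, 8 and 9. HIST1H1A clones 2 and 10 were above all control clones and the other HIST1H1A clones were not. The difference was 0.48 (standard error 0.22, limma, adjusted p = 0.38). Leaving out each array gave 0.35 to 0.59. The unadjusted p in limma was under 0.05 without control clone 9, HIST1H1A clone 8 or HIST1H1A clone 9, and *S100A13* passed in no setting. With the arrays of clones 8 and 9 alone the difference was -0.12. The RefSeq spans of *S100A13* and *S100A1* overlap by 3606 bases on opposite strands, and the strand each cluster reads was not checked. The same holds for *S100A8* and *S100A7A*, which overlap by 6064 bases.

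The genes of calprotectin, the heterodimer of S100A8 and S100A9 that myeloid cells and stressed keratinocytes make, differed little in array signal. *S100A9* gave 4.99, 4.41, 4.83 and 4.86 in HIST1H1A clones 2, 8, 9 and 10, against 5.20, 4.90, 4.85 and 4.82 in control clones 3, 4, 8 and 9. The groups overlapped, and the difference was -0.17 (95% confidence interval -0.53 to 0.19). *S100A8* gave 2.86, 2.78, 2.43 and 2.89 in HIST1H1A clones 2, 8, 9 and 10, against 2.80, 2.85, 3.02 and 2.68 in control clones 3, 4, 8 and 9. All of these lay below the median of all values. *S100A12*, the third calgranulin, differed by 0.10.

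*S100A7*, psoriasin, an antibacterial protein of inflamed skin, gave 2.79, 3.14, 2.80 and 2.67 in HIST1H1A clones 2, 8, 9 and 10, against 2.69, 2.49, 3.14 and 2.32 in control clones 3, 4, 8 and 9. Its near copy *S100A7A* differed by -0.18. *S100A4*, a binder of non-muscle myosin known from motile and mesenchymal cells, gave 2.63, 2.89, 2.69 and 2.45 in HIST1H1A clones 2, 8, 9 and 10, against 2.82, 2.76, 2.97 and 2.57 in control clones 3, 4, 8 and 9. Both genes were below the median in every clone, and neither separated the groups. *S100A2*, *S100A14* and *S100A16*, which are made by epithelia, differed by -0.15, -0.11 and -0.18. *S100A1*, known from heart muscle, *S100A3*, from the hair cuticle, and *S100A5* differed by -0.13, 0.01 and 0.12.

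**Figure D5:**
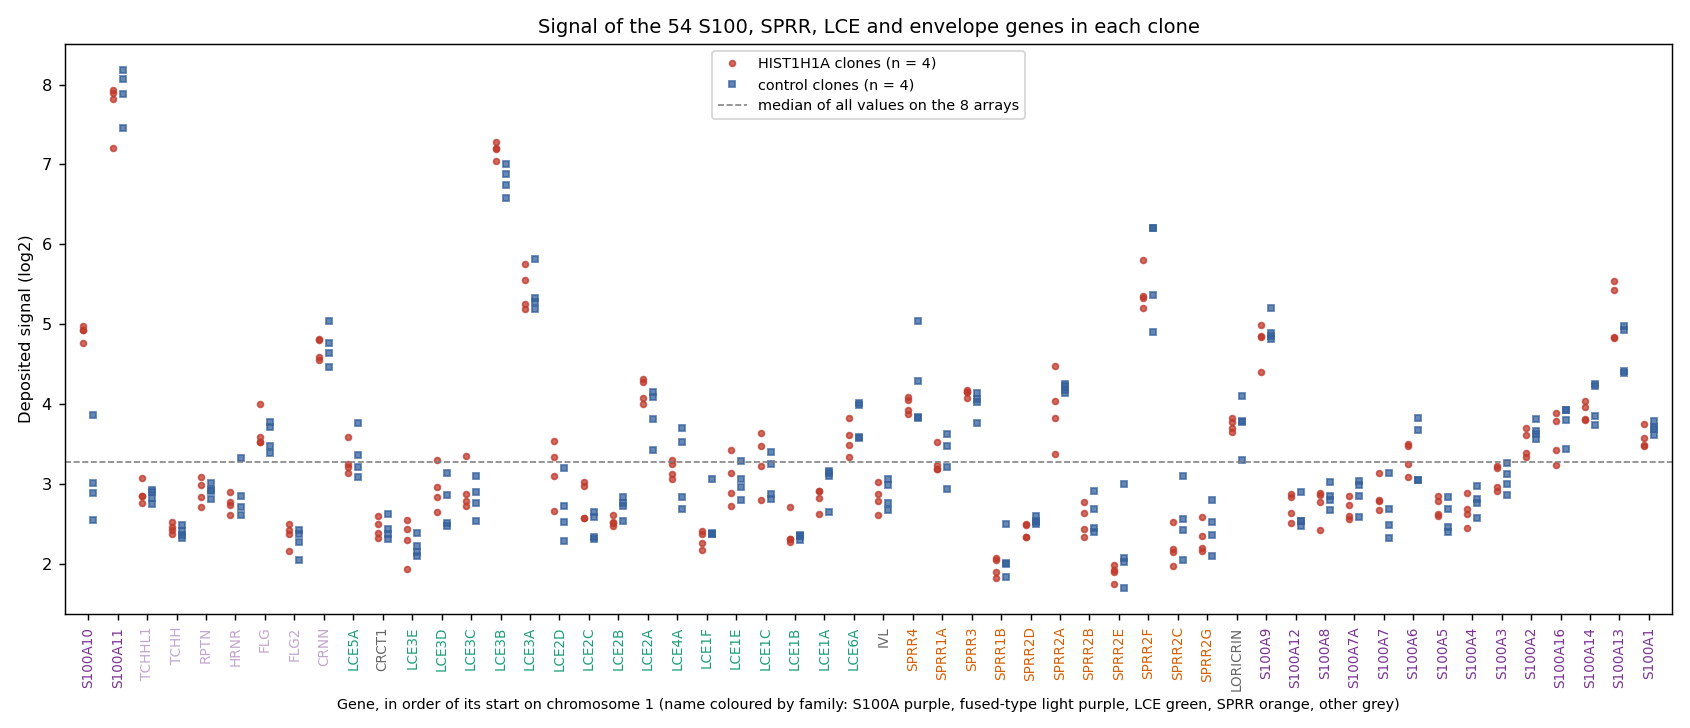
Deposited log2 signal (y axis) of each of the 54 members in the 4 HIST1H1A clones (red circles, left) and the 4 control clones (blue squares, right), in order along chromosome 1, with gene names coloured by family; the dashed line is the median of all values, 3.27. *S100A10*, at the left edge, is the single member with HIST1H1A clones far above control clones, and most other members overlap near the dashed line or under it.

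No fused-type gene passed or reached an unadjusted p of 0.05 in limma or in the methods' t-test, and the 7 differences ran from -0.12 to 0.08 on the log2 scale. *FLG* encodes profilaggrin, whose fragments pack keratin filaments in the outer epidermis. It gave 3.52, 4.00, 3.59 and 3.53 in HIST1H1A clones 2, 8, 9 and 10, against 3.72, 3.78, 3.39 and 3.48 in control clones 3, 4, 8 and 9, a difference of 0.07 (95% confidence interval -0.28 to 0.42). *CRNN*, cornulin, known from the oesophagus, gave 4.59, 4.80, 4.56 and 4.82 in HIST1H1A clones 2, 8, 9 and 10, against 4.77, 4.64, 5.04 and 4.47 in control clones 3, 4, 8 and 9. Its groups overlapped, with a difference of -0.04. *FLG2*, *HRNR*, *RPTN*, *TCHHL1* and *TCHH*, the trichohyalin gene of the hair root sheath, had both group means below the median of all values.

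The genes of the scaffold proteins of the cornified envelope were equally flat in array signal. *IVL*, the early scaffold involucrin, gave 3.03, 2.88, 2.61 and 2.78 in HIST1H1A clones 2, 8, 9 and 10, against 3.06, 2.99, 2.76 and 2.67 in control clones 3, 4, 8 and 9, all under the median of all values. *LORICRIN*, the most abundant envelope protein in skin, gave 3.65, 3.83, 3.70 and 3.78 in HIST1H1A clones 2, 8, 9 and 10, against 4.10, 3.79, 3.78 and 3.31 in control clones 3, 4, 8 and 9. The HIST1H1A clones fell inside the range of the control clones, and the 2 means, 3.74 ± 0.08 and 3.74 ± 0.33 (SD, n = 4 each), were the same to 2 decimals. *CRCT1* differed by 0.02.

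The 11 *SPRR* genes, whose proteins bridge the other envelope proteins, ran from -0.33 to 0.14, and none passed. With all 8 arrays 0 reached an unadjusted p of 0.05 in limma, and in the methods' t-test 1 did, *SPRR2D*. *SPRR2A* reached it in limma without HIST1H1A clone 9, and *SPRR2C* without control clone 9. *SPRR3*, known from oral and oesophageal epithelium, was the single *SPRR* gene with a difference above 0, with 4.15, 4.15, 4.07 and 4.17 in HIST1H1A clones 2, 8, 9 and 10, against 4.14, 4.06, 3.76 and 4.03 in control clones 3, 4, 8 and 9. The groups overlapped, and the difference was 0.14 (adjusted p = 0.72 in limma). *SPRR1A*, whose promoter is printed above, gave 3.53, 3.19, 3.24 and 3.19 in HIST1H1A clones 2, 8, 9 and 10, against 3.62, 3.21, 3.47 and 2.94 in control clones 3, 4, 8 and 9. *SPRR1B* was dim in all clones, at 1.82 to 2.08 in HIST1H1A clones and 1.84 to 2.50 in control clones. *SPRR4* was spread by a single array, with 3.93, 4.09, 3.88 and 4.05 in HIST1H1A clones 2, 8, 9 and 10, against 4.29, 3.82, 5.05 and 3.84 in control clones 3, 4, 8 and 9. Its difference was -0.26, and without control clone 8 it was 0.0011.

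All 7 *SPRR2* differences were below 0, from -0.33 to -0.07 with a median of -0.24, and none passed. Across all genes with a symbol 1853 of 4072 were below 0, and across all clusters 8635 of 16377. Without control clone 8, the highest control clone in 5 of the 7, the differences ran from -0.50 to 0.03 with a median of -0.13, and *SPRR2B* was above 0. The *SPRR2* genes are near copies of each other, so their clusters may read shared sequence and are not independent measurements. *SPRR2F* had the widest interval of the locus, with 5.36, 5.80, 5.33 and 5.21 in HIST1H1A clones 2, 8, 9 and 10, against 6.20, 6.20, 4.91 and 5.36 in control clones 3, 4, 8 and 9. Control clones 3 and 4 were above every HIST1H1A clone and control clone 8 was below every one. The difference was -0.24 (95% confidence interval -0.94 to 0.45). *SPRR2D* was the member whose groups were separate in the downward direction, at 2.33, 2.49, 2.49 and 2.34 in HIST1H1A clones 2, 8, 9 and 10, against 2.52, 2.51, 2.54 and 2.60 in control clones 3, 4, 8 and 9. All these signals were far below the median of all values, and the difference was -0.13 (adjusted p = 0.69 in limma).

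The 17 *LCE* genes ran from -0.24 to 0.47 with a median of 0.06, and none passed. At an unadjusted p under 0.05 there was 1 in the limma fit of all 8 arrays, *LCE3B*, and in the methods' t-test *LCE2B* as well. *LCE1A*, *LCE2C* and *LCE2D* reached it in some alternative settings. *LCE3B*, of the *LCE3* group known from injured and psoriatic skin, gave 7.04, 7.21, 7.20 and 7.28 in HIST1H1A clones 2, 8, 9 and 10, against 6.74, 7.005, 6.88 and 6.58 in control clones 3, 4, 8 and 9. The groups were separate by a small margin between HIST1H1A clone 2 and control clone 4. The difference was 0.38 (95% confidence interval 0.09 to 0.67), with an adjusted p of 0.15 in limma. *LCE3A* gave 5.55, 5.76, 5.25 and 5.19 in HIST1H1A clones 2, 8, 9 and 10, against 5.81, 5.19, 5.32 and 5.28 in control clones 3, 4, 8 and 9, and the groups overlapped. The 5 *LCE3* differences ran from 0.04 to 0.38. *LCE3C*, *LCE3D* and *LCE3E* had both group means below the median of all values. Whether clusters of near-identical *LCE* genes read shared sequence was not checked.

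The 4 *LCE2* genes differed by -0.19 to 0.47, and the 5 measured *LCE1* genes by -0.24 to 0.20. *LCE2D* had the largest difference of them, with 2.67, 3.33, 3.54 and 3.10 in HIST1H1A clones 2, 8, 9 and 10, against 2.53, 3.21, 2.28 and 2.73 in control clones 3, 4, 8 and 9. The groups overlapped, and its adjusted p was 0.45 in limma. *LCE2A* differed by 0.30. *LCE4A*, *LCE5A* and *LCE6A* differed by -0.0024, -0.06 and -0.23.

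Other genes in and beside the locus were read in the same fit. Within the span, 7 measured genes that are not members (*KPLCE*, *KPRP*, *SMCP*, *LELP1*, *PRR9*, *PGLYRP3* and *PGLYRP4*) differed by -0.10 to 0.24, and none passed. Of the 10 measured genes before *S100A10*, 1 passed: *OAZ3*, an antizyme gene known from spermatids, with a log2 fold change of -1.49 (adjusted p = 0.0007 in limma). Of the 10 genes after the last member, 6 passed, 4 higher and 2 lower in HIST1H1A clones. All 6 had both group means above the median of all values, whereas 31 of 54 members had both below it. Among all genes with a symbol 12.5% passed, and these counts were not matched on signal. *GATAD2B*, a subunit of the NuRD remodelling complex, rose by 1.08, *CRTC2*, a coactivator of CREB, by 0.96, *DENND4B* by 0.89 and *INTS3*, of the Integrator complex, by 0.79. *CREB3L4*, a prostate-enriched transcription factor of the secretory pathway, fell by 1.36 and *JTB* by 0.71. Nearest to the last member, *CHTOP*, *SNAPIN* and *NPR1* did not pass.

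A list of *S100* genes elsewhere in the genome and of S100 partners, which named only some of the annexins, had 5 of 19 genes measured, and none of these 5 passed. *AHNAK*, a giant scaffold that binds the complex of p11 and annexin A2, averaged 5.98 ± 0.26 in HIST1H1A clones and 5.97 ± 0.56 in control clones (SD, n = 4 each). *ANXA11* differed by -0.11. *SYT1*, the synaptic vesicle calcium sensor, differed by 0.57 (adjusted p = 0.053 in limma), with 4.04, 3.97, 4.43 and 4.07 in HIST1H1A clones 2, 8, 9 and 10, against 3.73, 3.62, 3.52 and 3.35 in control clones 3, 4, 8 and 9. Annexin genes outside the list were looked up after their values were seen, and among those given here *ANXA9* alone passed. *ANXA9* averaged 3.90 in HIST1H1A clones and 6.72 in control clones, a log2 fold change of -2.82 (adjusted p = 0.0011 in limma), and *ANXA7* differed by -0.94 (adjusted p = 0.099). *ANXA8* and *ANXA8L1* differed by -0.0080 and -0.13. The annexin A2 gene was not analysed here.

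Of 26 listed regulators of epidermal differentiation 7 were measured, of which 2 rose, 1 fell and 4 did not pass. *JUN*, a subunit of AP-1, rose by 2.23 on the log2 scale (adjusted p = 0.0022 in limma), with 9.42, 9.88, 9.46 and 9.69 in HIST1H1A clones 2, 8, 9 and 10, against 7.69, 8.07, 7.03 and 6.75 in control clones 3, 4, 8 and 9. *NOTCH2* rose by 1.26. *EHF*, an ETS factor of differentiated epithelia, fell by 5.26. *FOSL1*, another AP-1 subunit, *GRHL3* and *OVOL1* differed by 0.15, -0.32 and -0.86. Of 34 listed keratins, proteases and cross-linking genes of the cornified envelope 6 were measured, and 2 fell: *ST14*, the matriptase gene, by 3.22 and the plakophilin gene *PKP3* by 1.01.

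No measured marker of keratinocytes or myeloid cells passed in either direction. Of 18 keratinocyte markers 6 were measured (*KRT1*, *KRT2*, *KRT4*, *KRT5*, *KRT6C* and *PKP1*). Their mean log2 signal per clone was 2.85 to 2.99 in HIST1H1A clones and 2.87 to 3.16 in control clones. *KRT1*, *KRT4* and *PKP1* had both group means above the median of all values, and the other 3 had both below it. Of 17 myeloid markers 3 were measured (*CD53*, *LYZ* and *MNDA*), all below the median of all values, with means per clone of 2.63 to 2.73 in HIST1H1A clones and 2.66 to 2.76 in control clones. Of 15 markers of luminal prostate cells 5 were measured, *FOLH1*, *EHF*, *KRT8*, *CREB3L4* and *KRT18*, and all 5 fell, with means per clone of 4.58 to 4.64 in HIST1H1A clones and 7.32 to 7.90 in control clones. *FOLH1*, which encodes prostate-specific membrane antigen, was below the median of all values in each HIST1H1A clone. The luminal falls and the rise of *S100A10* lay in the same clones, and the part of the one in the other was not tested.

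Facts of the whole series that bear on these values are few. Array medians ran from 3.246 to 3.297. Across clusters, arrays correlated at 0.964 to 0.977 within HIST1H1A clones, 0.932 to 0.967 within control clones and 0.916 to 0.948 between the groups. The over-expressed gene was not analysed here, so the labels could not be checked by it. The number of arrays limits the precision.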

How the data were processed

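Total RNA of 4 *HIST1H1A* and 4 control vector clonal isolates of LNCaP cells was run on Affymetrix Human Gene 2.0 ST arrays. The values that the authors deposited are log2 signals, 1 per transcript cluster. Partek Genomics Suite is named as the software. Of its version and of how it summarized and normalized the signals, the sources used here say nothing. The log2 values were used as they stood, and no background level was applied. There were 16377 clusters, 4247 with 1 symbol in the platform annotation (4072 genes) and 12130 with none here. Some genes are not reported.

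HIST1H1A clones were set against control clones in limma 3.58.1 (R 4.3.3; lmFit, then eBayes) on all 8 arrays with no covariates, and p-values were adjusted by Benjamini-Hochberg over all clusters. The members, the gene lists and the rule for named genes (members that pass, the 8 brightest and family-defining members, neighbours that pass, and up to 3 rises and 3 falls per list) were chosen with earlier results of these data known. *S100A6*, *LCE2D*, *SPRR2D*, *ELF5* and further members named with a difference alone were added after their values were seen. Positions and promoters came from RefSeq GRCh38.p14, with 1 promoter per gene at the most upstream start. The fit was also run on simulated data with independent normal noise of equal spread in both groups. That run could not show how the fit behaves with unequal spreads or with clusters that vary together. There were 18 alternative settings: the methods' t-test (the array methods name no test, so its use on arrays is inferred), limma with trend and robust settings, quantile normalization, median centring, a filter that dropped dim clusters, clusters with a symbol only, the mean over a gene's clusters, limma against a 2-fold change, clones 8 and 9 with and without a block on clone number, and leaving out each array. Clone numbers 8 and 9 occur in both groups, and how far same-numbered clones lay from their group means correlated at 0.07 and -0.22. These values were not set beside those of differently numbered clones, so they cannot decide whether the numbers pair the clones.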

Additional observations from a re-analysis of the deposited data

Results flagged for a closer look

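In 108 sets of 4 clones (54 members in 2 groups), 7 held a clone far from the other 3 by Dixon's 95% limit, where chance gives about 5.4. Of these, 4 were in HIST1H1A clones. *S100A11* was 7.20 in HIST1H1A clone 2, with the nearest other clone at 7.82. *SPRR1A* was 3.53 in HIST1H1A clone 2, with the nearest at 3.24. *FLG* was 4.00 in HIST1H1A clone 8 (nearest 3.59), and *LCE1B* was 2.72 in the same clone (nearest 2.31). The other 3 were in control clones. *LCE1F* was 3.07 in control clone 8, with the nearest at 2.38. *LCE1A* was 2.65 in control clone 4 (nearest 3.10), and *LCE1B* was 2.30 in control clone 9 (nearest 2.35), where the other control clones lay within 0.01 of each other. None of these members passed, and *S100A10* had no such clone.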

How the results depend on the processing

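*S100A10* was the single member called in each of the 15 settings that kept at least 7 arrays and tested against no change, with adjusted p of 0.000304 (without control clone 3) to 0.027 (the methods' t-test). These settings reused the same arrays, and all took the spread as equal in both groups. With limma against a 2-fold change 0 members passed (*S100A10* adjusted p = 0.396). Clones 8 and 9 alone, 2 arrays a side, gave 0 members and a log2 fold change of 2.21 for *S100A10*, with an adjusted p of 0.13 with the replicate block and 0.0536 without it. In these 3 limma fits 1, 2 and 2 members had an unadjusted p under 0.05. The methods' t-test called 1 member after Benjamini-Hochberg and 4 at an unadjusted p under 0.05 (*S100A10*, *LCE3B*, *LCE2B* and *SPRR2D*); over all clusters 768 had such a p and a fold change over 2.

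Over all clusters 948 passed. Leaving out each array gave 602 to 963 (398 to 630 higher, 204 to 355 lower in HIST1H1A clones), and 602 came without HIST1H1A clone 9. The methods' t-test gave 552 (374 higher, 178 lower), the test against a 2-fold change 118 (73 and 45), clones 8 and 9 with the replicate block 0 and without it 75 (46 and 29). With a fold change over 2 as well, 618 passed with all arrays, 397 by the t-test, 388 among named clusters only, 118 against a 2-fold change, 0 with the block and 75 without it. Of these alternative settings, the t-test and the test against a 2-fold change used all arrays and all clusters. The others used fewer arrays or fewer clusters. The cause of the changed counts was not tested.

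Only the members named by the rule were followed gene by gene over all settings. Sign changes in other members, such as *SPRR2B* without control clone 8, were not counted. Among the followed members, 13 differences changed sign, and none of these members passed in any setting. Most were near 0 with all arrays, but *S100A13* was 0.48 and *SPRR4* and *SPRR2F* were -0.26 and -0.24. With clones 8 and 9 alone they became 0.25 in *S100A11*, 0.026 in *IVL*, 0.0064 in *SPRR1A*, 0.43 in *SPRR2F*, 0.22 in *LORICRIN*, 0.020 in *S100A4* and -0.12 in *S100A13*. After quantile normalization *LCE3A* was -0.0445. Leaving out each array gave -0.044 to 0.13 for *FLG*, -0.12 to 0.066 for *CRNN*, -0.067 to 0.18 for *LCE3A*, -0.12 to 0.0245 for *IVL*, -0.41 to 0.0011 for *SPRR4*, -0.15 to 0.077 for *SPRR1A*, -0.20 to 0.015 for *SPRR1B*, -0.15 to 0.12 for *LORICRIN* and -0.15 to 0.0038 for *S100A8*. The filter on dim clusters left out *IVL*, *SPRR1B*, *S100A8*, *S100A7* and *S100A4*, so it gave no value for them. No member was called with the replicate block or without it on the same 4 arrays.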

Other observations

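Some clones stood at the edge of their group in many members, chosen here after the values were seen. Among control clones, clone 3 was highest in 10 of 16 *S100A* genes (62.5%), against 33.0% of genes with a symbol. Control clone 8 was highest in 5 of 7 *SPRR2* genes (71.4%), against 16.5%. In that clone *SPRR2E* was 3.01 and *SPRR2C* 3.11, above the other control clones, whereas *SPRR2F* was lowest there at 4.91. Among HIST1H1A clones, clone 8 was highest in 21 of 54 members (38.9%), against 29.4%.

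*ELF5*, an ETS factor of secretory and stratified epithelia, was uneven among the control clones. It was 3.40, 3.24, 3.53 and 3.41 in HIST1H1A clones 2, 8, 9 and 10, against 3.87, 4.25, 4.80 and 7.13 in control clones 3, 4, 8 and 9. All HIST1H1A clones were below all control clones, and the difference was -1.62 (adjusted p = 0.23 in limma).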
